A study of Mus musculus with 28 samples.

Results

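The 37 genes described here mark brain macrophages, and they were followed in RNA from the choroid plexus of the lateral ventricles of 28 male mice. The list was chosen with earlier results of these data known. Its genes were taken by symbol from the 27179 genes of 2 deposited count tables, and all 37 were found. They fall into 7 roles: 8 genes of macrophage identity, 7 border macrophage genes, 5 microglial genes, 3 genes of complement C1q, 6 surface receptors and adaptors, 4 genes of MHC class II and 4 genes of the lysosome and oxidase. Each mouse was perfused with buffered saline and gave 1 poly(A) library, and there were 7 groups with 4 mice in each. The young table (batch 1) holds C57/BL6 wild-type mice of 3 to 4 months in 3 groups: undisturbed mice taken by day, 6 h after lights on (ZT6), mice taken at ZT6 after 6 h of sleep disruption, and mice taken at night (ZT18). The aged table (batch 2) holds mice of 12 to 14 months in 4 groups, J20+ mice and their wild-type littermates, each taken at ZT6 or ZT18. The J20 transgene is a human APP gene (amyloid precursor protein) with familial Alzheimer mutations under the PDGF-B promoter, which acts mainly in neurons. The tissue label was checked with 10 markers of choroid epithelium, whose mean was 9.88 to 11.28 log2 CPM (counts scaled to a common library size) in every library.

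Macrophages of the choroid plexus sit in its stroma and on the ventricular face of its epithelium. They are called border macrophages because, like those of the meninges and of the spaces around vessels, they lie at the edge of the brain, and they carry scavenger and lectin receptors such as Mrc1, Cd163, Lyve1 and Stab1. Microglia, the macrophages of the brain tissue, share the receptors Csf1r and Cx3cr1 with them but are known for P2ry12, Tmem119, Gpr34, Siglech and Fcrls, and cells with a microglia-like profile also occur on the choroid plexus. In RNA from whole tissue, fewer cells of a type and less RNA per cell cannot be told apart, nor can 2 macrophage types that share a gene.

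Promoters of 26 of the 37 genes were found in the RefSeq promoter table (GRCm38.p6, windows of 300 bases around the start). Macrophage promoters often carry purine-rich sites for PU.1, the factor encoded by Spi1, and promoters of MHC class II genes carry a Y box, an inverted CCAAT element. The letters GAGGAA, searched on both strands (TTCCTC on the other), were in the promoters of 19 of the 26 genes (73.1%), in those of 31.2% of all 27025 genes of the table and in 28.3% of its 32851 promoters. The letters CTGATTGG, or CCAATCAG on the other strand, were in the promoters of H2-Aa and H2-Eb1 (7.69% of the 26), in those of 4.70% of all genes and in 4.10% of all promoters. A match describes the letters only and is not evidence of a bound site. The following 4 promoters are shown because Fcrls and Itgam were far higher in 1 young library than in the others, and H2-Aa and H2-Eb1 were lowest in that same library. They are read 5′ to 3′ on the strand of the gene, and capitals mark these letters. For Fcrls the window lies almost wholly inside the span of the gene, 87250736 to 87263765, and so do its marked letters.
Fcrls, chr3:87263475-87263774, minus strand: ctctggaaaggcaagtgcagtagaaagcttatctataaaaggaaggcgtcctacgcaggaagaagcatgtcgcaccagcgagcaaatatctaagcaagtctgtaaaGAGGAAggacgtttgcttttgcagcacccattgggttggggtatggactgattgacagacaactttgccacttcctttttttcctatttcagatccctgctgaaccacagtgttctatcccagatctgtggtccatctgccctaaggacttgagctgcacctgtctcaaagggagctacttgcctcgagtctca
Itgam, chr7:128062390-128062689, plus strand: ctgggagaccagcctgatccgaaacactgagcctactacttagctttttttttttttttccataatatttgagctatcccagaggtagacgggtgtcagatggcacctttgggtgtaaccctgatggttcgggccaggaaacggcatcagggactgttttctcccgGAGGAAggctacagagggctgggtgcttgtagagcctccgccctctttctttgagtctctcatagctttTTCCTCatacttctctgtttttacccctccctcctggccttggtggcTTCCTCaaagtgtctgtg
H2-Aa, chr17:34287774-34288073, minus strand: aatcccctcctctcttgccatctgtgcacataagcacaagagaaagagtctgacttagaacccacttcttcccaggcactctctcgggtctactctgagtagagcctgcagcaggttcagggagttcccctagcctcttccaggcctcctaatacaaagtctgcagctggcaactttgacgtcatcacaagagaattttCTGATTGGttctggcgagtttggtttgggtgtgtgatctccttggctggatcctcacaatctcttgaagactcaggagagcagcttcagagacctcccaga
H2-Eb1, chr17:34305617-34305916, plus strand: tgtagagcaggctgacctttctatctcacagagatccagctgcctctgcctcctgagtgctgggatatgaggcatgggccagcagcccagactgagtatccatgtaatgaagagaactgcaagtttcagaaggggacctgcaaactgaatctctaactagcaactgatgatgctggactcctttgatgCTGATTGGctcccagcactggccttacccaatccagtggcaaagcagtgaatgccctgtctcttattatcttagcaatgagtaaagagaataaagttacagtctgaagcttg

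Library totals were 22.5M to 29.0M counts in the young table and 14.6M to 43.9M in the aged table. The 37 genes together took 0.0161% to 0.0898% of the counts of a library, so counting error is large for the rarest of them. Spi1, the gene of PU.1, and Lyve1, a hyaluronan receptor, were under the filter for low counts in the young table, where Spi1 had as few as 2 counts and Lyve1 as few as 1 in a library. In the aged table all 37 genes passed, though Lyve1 was at 0 in 1 wild-type day library and in 1 J20+ night library. The 2 tables were normalised and tested apart, since age and sequencing batch cannot be told apart.

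Levels between genes were compared as CPM per kilobase of exon. In the young table Lyz2, which encodes lysozyme, had the highest median, 32.1 CPM per kilobase, followed by the lysosomal protease gene Ctss at 17, H2-Aa at 10.6 and Cd74, the invariant chain of MHC class II, at 7.42. Among border macrophage genes the mannose receptor gene Mrc1 was highest, with a median of 2.70 CPM per kilobase, and among microglial genes Gpr34, a lysophospholipid receptor, with 2.27. In the aged table Cd74 had the highest median, 58.3 CPM per kilobase, before H2-Aa at 41.4, Lyz2 at 29.5 and Ctss at 24.8. There the chemokine gene Pf4 led the border macrophage genes with 1.94 CPM per kilobase and Tmem119 led the microglial genes with 2.80. Lyve1 was the lowest of the 37 in both tables, with medians of 0.042 and 0.079 CPM per kilobase.

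**Figure D1:**
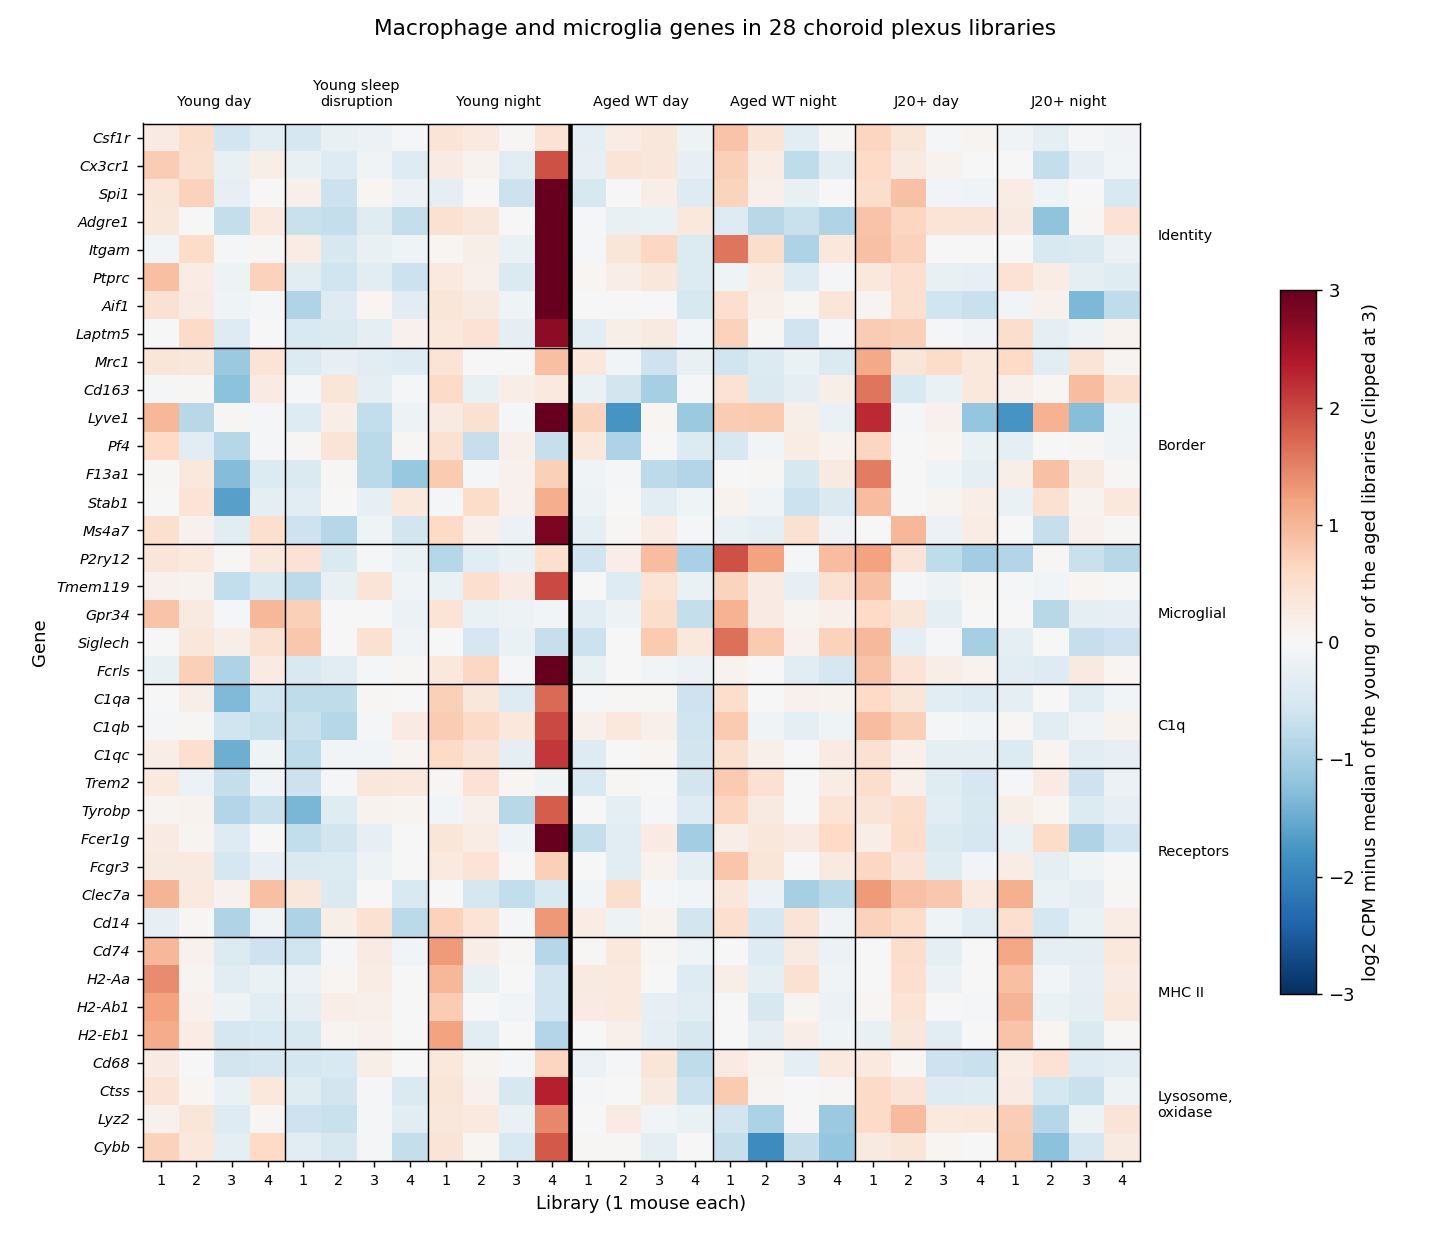
Level of each of the 37 genes (rows, by role) in each of the 28 libraries (columns, by group), as its log2 CPM minus its median over the libraries of the same table, with colours clipped at 3. Young night library 4 stands out as a column with high values for most roles and low values for the 4 MHC class II genes.

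In the comparison of young night with young day, 27 of the 35 tested genes had a positive log2 fold change and the median was 0.55, against a median of 0.02 over all 14983 genes tested. Also positive were 8 of 8 endothelial (median 0.17), 6 of 6 fibroblast (0.30) and 7 of 7 mural markers (0.30). The part of these stromal and vessel markers was not tested. No member passed an adjusted p of 0.05 in edgeR's quasi-likelihood test with Benjamini-Hochberg adjustment, which called 40 genes, 0.267% of those tested. At an unadjusted p under 0.05 stood 12 of the 35 members (34.3%), against 9.39% of all genes. DESeq2 called 1 member, Clec7a, lower at night (log2 fold change -1.05, adjusted p = 0.0162), and 1.74% of all genes. Limma-voom with quality weights called 2 members lower, Clec7a (-1.12) and P2ry12 (-0.67), and 18.9% of all genes. The medians by role were 1.45 for identity genes, 1.16 for C1q genes, 0.67 for receptors and adaptors, 0.54 for border macrophage genes and 0.51 for lysosome and oxidase genes, but -0.13 for MHC class II genes and -0.38 for microglial genes. The microglial median was -0.20 without night library 1, and the border macrophage median was 0.25 without night library 4 and 0.30 without day library 3. The MHC class II median ran from -0.57 without night library 1 to 0.38 without day library 1.

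The size of the median over all members rested on 1 mouse, and without it that median was 0.13. The microglial median did not, and was -0.50 without that mouse against -0.38 with it. Young night library 4 lay above all 11 other young libraries for 25 of the 37 genes, below all of them for 5 and within their range for 7. Those above included 7 of 8 identity genes, all 3 C1q genes, all 4 lysosome and oxidase genes, 4 of 6 receptors and adaptors, 4 of 7 border macrophage genes and 3 of 5 microglial genes. The 5 below were Siglech and all 4 MHC class II genes. Among the 35 tested members this library held the highest value for 23 (65.7%), and it did so for 17.5% of all tested genes, while it held the lowest value for 30.0% of all genes. The cause was not tested.

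Adgre1 (chromosome 17, 57358581 to 57483529 in GRCm38.p6) encodes F4/80, the classic macrophage surface marker of the mouse. Its level was 13.6, 10.9, 6.57 and 13.2 CPM in the 4 young day libraries, 6.79, 6.48, 8.33 and 6.50 after sleep disruption, and 14.8, 13.6, 10.6 and 188 at night. Night library 4 alone stood above the day range by a wide margin, and night libraries 1 to 3 lay in or just above that range. The night to day log2 fold change was 2.38 ± 0.82 (SE, n = 4 per group; adjusted p = 0.383, edgeR), and without night library 4 it was 0.24 ± 0.21 (adjusted p = 0.466, edgeR).

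Fcrls, a gene of the Fc receptor-like family (chromosome 3, 87250736 to 87263765), had 3.85, 7.49, 2.37 and 5.44 CPM by day, 3.26, 3.64, 4.40 and 4.65 after sleep disruption, and 5.66, 7.0, 4.44 and 85.2 at night. Itgam (chromosome 7, 128062640 to 128118491), the alpha chain of the integrin CD11b, had 2.81, 4.43, 2.91 and 3.07 CPM by day, 3.49, 2.12, 2.55 and 2.73 after sleep disruption, and 3.11, 3.38, 2.6 and 38.6 at night. The other 3 night libraries were inside the day range for Fcrls, and for Itgam 1 of them was just under it. Night library 4 was 19.2 times (Fcrls) and 13.3 times (Itgam) the median of the other 11 young libraries. Without it their night to day log2 fold changes were 0.25 and -0.13. Night library 4 was also 20.3 times that median for Lyve1, from at most 0.32 CPM elsewhere to 2.40, 13.2 times for Ptprc, the pan-leukocyte phosphatase CD45, 12.4 times for Aif1, the actin-binding protein IBA1, 11.6 times for Spi1 and 11 times for Fcer1g, the signalling gamma chain of Fc receptors. In all, 11 of the 37 genes were at least 5 times the median there. Of the border macrophage genes other than Lyve1, only Ms4a7, a membrane-spanning 4A protein, reached that size, at 7.95 times the median. Mrc1 had 27.2 CPM in library 4 and at most 19.4 elsewhere, and Pf4 had 0.19 CPM, within the range of the others.

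The microglial genes parted from one another in that library. Beside Fcrls, Tmem119 had 3.99 CPM there and at most 1.38 in the other night and day libraries, while P2ry12, the purinergic receptor that guides microglial processes, had 4.92 CPM and at most 4.64 elsewhere. Siglech (chromosome 7, 55768154 to 55779448), a sialic acid-binding lectin, had 2.36, 3.00, 2.66 and 3.27 CPM by day and 2.35, 1.64, 2.03 and 1.43 at night, with library 4 the lowest. Every night library lay below every day library for Siglech, and the log2 fold change was -0.59 ± 0.24 (SE, n = 4; adjusted p = 0.47, edgeR). Gpr34 had 4.49 CPM in library 4, in the lower part of its young range.

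**Figure D2:**
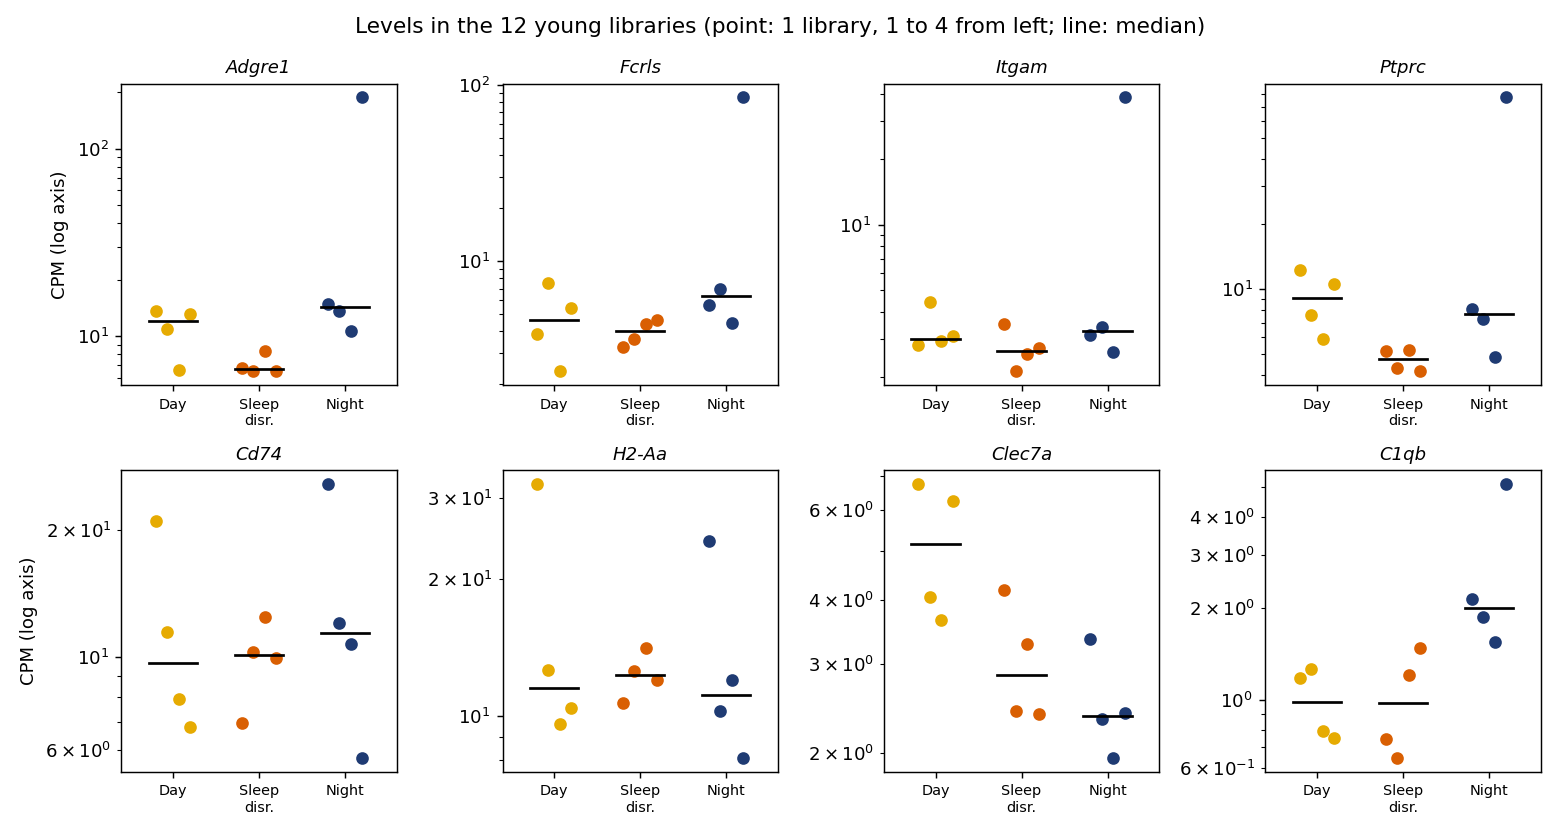
CPM on a log axis in the 12 young libraries (4 per group, 1 point per library) for 8 members, with a line at each group's median. Night library 4 reaches 188 CPM for Adgre1 and 85.2 CPM for Fcrls, and lies within the range of the others for Clec7a and below it for Cd74 and H2-Aa.

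Markers of some other cell types were also unusual in night library 4, but by count those of neurons and endothelium were not. Its neural score, the mean log2 CPM of 26 neuron, oligodendrocyte and astrocyte markers, was 3.35, against 1.54 to 3.14 in the other young libraries, and it was the highest library for 6 of 8 astrocyte, 3 of 8 oligodendrocyte and 1 of 10 neuron markers, where it was the highest for 17.5% of all genes. It was also the highest for 3 of 6 fibroblast, 3 of 7 mural and 1 of 8 endothelial markers, against the same 17.5%. It was the lowest for 5 of 10 markers of choroid epithelium, against 30.0% of all genes. The summed level of the 26 markers was 236 to 754 CPM at night, 322 to 419 by day and 194 to 633 after sleep disruption, with all 26 counted in every library. The 9 lymphocyte markers summed to 0.53 to 1.78 CPM and the 8 neutrophil markers to 0.49 to 1.09 CPM over the 4 night libraries, with the neutrophil gene Ly6g at 0. The part of these markers in the macrophage values was not tested.

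Genes whose night and day libraries did not overlap were C1qb, higher at night, and Clec7a and Siglech, lower, 3 of 35 members against 4.9% of all genes. C1qb (chromosome 4, 136880126 to 136886200), a chain of the first complement component, had 1.18, 1.26, 0.79 and 0.75 CPM by day, 0.74, 0.64, 1.21 and 1.48 after sleep disruption and 2.14, 1.87, 1.54 and 5.11 at night. All 4 night libraries were above the 8 others, and the night to day log2 fold change was 1.43 ± 0.41 (SE, n = 4; adjusted p = 0.238, edgeR). Without night library 4 it was 0.89 ± 0.30 (adjusted p = 0.113, edgeR). Clec7a (chromosome 6, 129461591 to 129472785), the beta-glucan receptor Dectin-1, had 6.76, 4.05, 3.66 and 6.26 CPM by day, 4.19, 2.43, 3.28 and 2.39 after sleep disruption and 3.36, 2.33, 1.96 and 2.40 at night. Its day libraries were above all night libraries, and the log2 fold change was -1.04 ± 0.26 (SE, n = 4; adjusted p = 0.178, edgeR), or -1.02 ± 0.29 (adjusted p = 0.0954, edgeR) without night library 4.

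The MHC class II genes followed another set of libraries. H2-Aa (chromosome 17, 34282744 to 34287823), an alpha chain that presents peptide to T cells, had 32.2, 12.6, 9.61 and 10.4 CPM by day, 10.7, 12.6, 14.1 and 12.0 after sleep disruption and 24.2, 10.3, 12.0 and 8.09 at night. Cd74 had 21.1, 11.4, 7.91 and 6.81 CPM by day, 6.94, 10.3, 12.4 and 9.93 after sleep disruption and 25.8, 12.0, 10.7 and 5.73 at night. Day library 1 and night library 1 were the highest for both genes, as they were for H2-Ab1 and H2-Eb1, and night library 4 was the lowest for all 4. The mean of the 4 genes was 4.13 and 4.01 log2 CPM in those 2 high libraries, 2.22 in night library 4, and 2.54 to 3.13 in the other 9. The night to day log2 fold changes of the 4 genes lay between -0.24 and 0.21, with adjusted p from 0.833 to 0.991 (edgeR).

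After sleep disruption, 9 of 35 members had a positive log2 fold change against young day, and the median was -0.29, against 0.00 over all genes. Of other markers, 1 of 8 endothelial (median -0.33) and 1 of 6 fibroblast markers (-0.12) were positive. So were 6 of 10 neuron (0.16) and 5 of 8 astrocyte markers (0.41). The part of these markers was not tested. The median of the members was -0.13 (12 positive) without day library 2, -0.17 (15 positive) without day library 1 and -0.47 (2 positive) without day library 3. EdgeR called 0 members and 0 genes (0%), as did DESeq2 (0%) and limma-voom (0%). At an unadjusted p under 0.05 stood 1 member, Clec7a, and 2.4% of all genes. Ptprc was the only member whose libraries did not overlap, against 2.09% of all genes: it had 12.2, 7.59, 5.87 and 10.6 CPM by day and 5.19, 4.32, 5.27 and 4.18 after sleep disruption. Its log2 fold change was -0.94 ± 0.76 (SE, n = 4; adjusted p = 0.861, edgeR). The young groups share 1 spread estimate, so this SE also carries the spread of the night libraries, where library 4 had 77.4 CPM. The members with the smallest p were Clec7a (-0.75 ± 0.26), Cybb, the catalytic subunit of the phagocyte NADPH oxidase (-0.76 ± 0.43), and Mrc1 (-0.45 ± 0.30), each with an adjusted p of 0.861 (edgeR). Mrc1 (chromosome 2, 14229414 to 14332023) had 18.6, 18.3, 6.62 and 19.4 CPM by day and 10.9, 12.3, 11.7 and 11.1 after sleep disruption. Day library 3 was far under the other 3, and without it the log2 fold change of Mrc1 was -0.70. That library was the lowest of the young table for 12 of the 35 members, and for 7.95% of all genes. Its endothelial and mural marker scores, 2.31 and 1.44 log2 CPM, were also the lowest of the 12 libraries. The medians by role were -0.53 for identity genes, -0.48 for lysosome and oxidase genes, -0.32 for MHC class II, -0.27 for microglial genes, -0.12 for border macrophage genes and for receptors and adaptors, and 0.01 for C1q genes.

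Young night was also set against sleep disruption, a comparison of mice in their active phase with mice kept from sleep in their rest phase. Here 30 of 35 members were positive, with a median of 0.94 against 0.01 over all genes. Markers of stroma and vessels lay on the same side, with 8 of 8 endothelial (median 0.52), 6 of 6 fibroblast (0.48) and 7 of 7 mural markers (0.51) positive, and their part was not tested. Of the members, 22 of 35 (62.9%) stood at an unadjusted p under 0.05, against 9.7% of all genes. Of all genes 0.38% were called by edgeR, and 0 members. DESeq2 called 1 member, Ms4a7 (log2 fold change 1.99, adjusted p = 0.0247), and 2.08% of genes, and limma-voom 1 member, C1qb (0.96), and 7.36% of genes. The 5 members Csf1r, Adgre1, Mrc1, C1qb and Fcgr3 had every night library above every sleep disruption library, and 7.82% of all genes did not overlap. Csf1r, the receptor for the macrophage growth factors CSF1 and IL-34, had 7.46, 9.02, 9.37 and 10.4 CPM after sleep disruption and 13.8, 13, 10.8 and 14.4 at night, a separation that did not rest on night library 4. Mrc1 had 19.2, 14.5, 14.6 and 27.2 CPM at night, above the 10.9 to 12.3 CPM of sleep disruption. The smallest p belonged to Adgre1 (3.04 ± 0.85, adjusted p = 0.206), C1qb (1.39 ± 0.40, adjusted p = 0.232) and Ms4a7 (1.98 ± 0.59, adjusted p = 0.256) in edgeR. Ms4a7 had 2.34, 1.97, 3.32 and 2.46 CPM after sleep disruption and 5.58, 4.07, 3.20 and 26.4 at night, which overlapped by 1 library. Without night library 4 the log2 fold changes were 0.89 for Adgre1, 0.86 for C1qb and 0.77 for Ms4a7, and the median of the members was 0.44 and that of the border macrophage genes 0.38. This comparison shares its night libraries with the comparison of night with day.

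**Figure D3:**
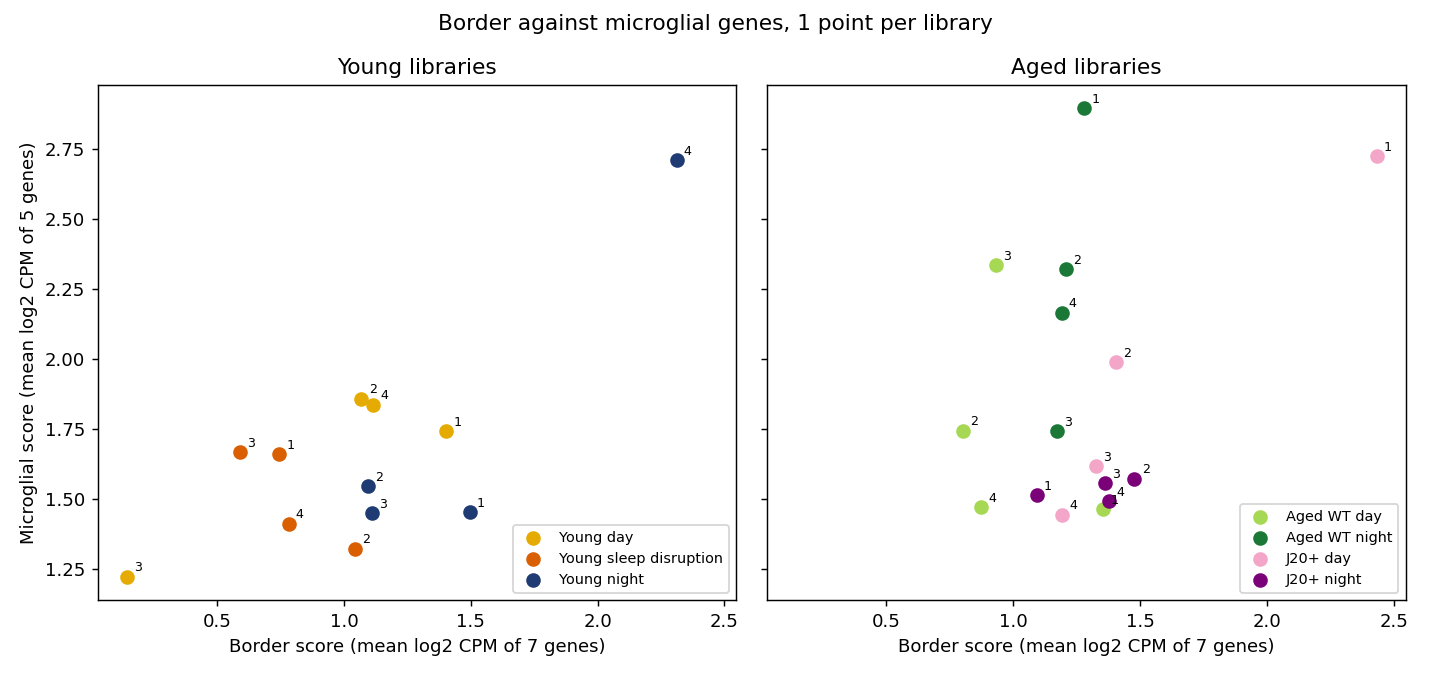
Border macrophage score against microglial score in the 28 libraries, 1 point per library and 1 panel per table, each score the mean log2 CPM of its genes (7 and 5). Young night library 4 and J20+ day library 1 have the highest border scores of their tables, 2.31 and 2.43, and wild-type night library 1 the highest microglial score.

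Scores of the border macrophage and the microglial genes, each the mean log2 CPM of the list, are given as descriptions. The border macrophage score was 0.93 ± 0.55 (SD, n = 4) in young day, 0.79 ± 0.19 after sleep disruption and 1.5 ± 0.57 in young night. The microglial score was 1.67 ± 0.30, 1.52 ± 0.18 and 1.79 ± 0.62 in the same order. Both scores were highest in night library 4, at 2.31 and 2.71, and the other 3 night libraries ran from 1.09 to 1.5 for the border score and from 1.45 to 1.55 for the microglial score, against 0.14 to 1.40 and 1.22 to 1.86 in the day libraries. The border score includes Lyve1, which was under the filter in the young table. Lyve1 had 1.31 log2 CPM in night library 4 and -2.40 to -1.87 in the other 3 night libraries, so it adds to that peak. In the aged table the border score was 0.99 ± 0.25 in wild-type day, 1.21 ± 0.05 in wild-type night, 1.59 ± 0.57 in J20+ day and 1.33 ± 0.17 in J20+ night. The microglial score was 1.75 ± 0.41, 2.28 ± 0.48, 1.94 ± 0.57 and 1.53 ± 0.04. The difference, border minus microglial, was 0.76 and 1.07 below 0 in wild-type day and night, and 0.35 and 0.21 below 0 in J20+ day and night. Its 4 wild-type night libraries ran from -1.61 to -0.57 and its 4 J20+ night libraries from -0.42 to -0.10, without overlap. The day groups overlapped, from -1.40 to -0.11 in wild-type and from -0.58 to -0.25 in J20+. Across the 16 aged libraries Pearson's r between this difference and the neural score was -0.58, and -0.39 for deviations from the group means. The neural score averaged 6.1 in wild-type night and 3.11 in J20+ night, and its part in this difference was not tested. The sign of this difference carries no meaning between genes of unequal length and capture, so only its change between libraries was read.

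In aged wild-type mice, 28 of 37 members were positive at night against day, with a median log2 fold change of 0.29 against 0.03 over all 16065 genes tested. The median was 0.12 (26 positive) without day library 4 and 0.13 (23 positive) without night library 1. EdgeR called 0 members and 2 genes (0.0124%), and DESeq2 called 0 members and 8.65% of genes. At an unadjusted p under 0.05 were 6 of 37 members (16.2%), a smaller share than the 31.1% of all genes. Limma-voom called 8 members higher (P2ry12, Tmem119, Siglech, C1qc, Trem2, Tyrobp, Fcer1g and Fcgr3) and 3 lower (Adgre1, Lyz2 and Cybb), and 51.7% of all genes. A fit on these 8 libraries alone called Tyrobp higher (0.63, adjusted p = 0.0495) and Cybb lower (-0.91, adjusted p = 0.0429) in edgeR, and 26.2% of all genes. Libraries did not overlap for Tyrobp and Aif1, higher at night, and for Cybb and Adgre1, lower, 4 of 37 members against 25.3% of genes. The medians by role were 0.64 for microglial genes, 0.61 for receptors and adaptors, 0.42 for C1q genes, 0.25 for identity genes, 0.22 for border macrophage genes, 0.02 for MHC class II and -0.12 for the lysosome and oxidase. Without night library 1 the microglial median was 0.32, and the border macrophage median ran from 0.05 (without day library 2) to 0.41 (without day library 1).

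Cybb (X chromosome, 9435252 to 9487766) had 7.69, 7.68, 6.18 and 7.42 CPM in wild-type mice by day and 4.60, 1.96, 4.60 and 3.34 at night. Every night library was below every day library, and the log2 fold change was -0.92 ± 0.36 (SE, n = 4; adjusted p = 0.144, edgeR). Tyrobp, the adaptor DAP12 through which TREM2 signals, had 6.93, 5.79, 6.78 and 5.36 CPM by day and 10.9, 8.49, 7.07 and 9.35 at night, all above the day libraries, with a log2 fold change of 0.62 ± 0.26 (adjusted p = 0.146, edgeR). Trem2, a lipid-sensing receptor, had 2.6, 3.70, 3.60 and 2.46 CPM by day and 6.28, 5.03, 3.64 and 4.23 at night, with 1 night library inside the day range (0.72 ± 0.31, adjusted p = 0.147, edgeR). P2ry12 (chromosome 3, 59216271 to 59262985) had 1.83, 3.23, 5.40 and 1.40 CPM by day and 10.9, 6.64, 2.73 and 5.45 at night. Its groups overlapped, and its log2 fold change was 1.22 ± 0.58 (adjusted p = 0.165, edgeR).

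Markers of brain tissue moved with these values. The neural score was 1.45 to 5.22 log2 CPM in wild-type day libraries, 4.39 to 7.06 in wild-type night, 1.72 to 5.99 in J20+ day and 1.56 to 5.16 in J20+ night. The summed level of its 26 markers was 260 to 3390 CPM in wild-type day and 1215 to 7695 CPM in wild-type night, 273 to 3149 CPM in J20+ day and 267 to 1814 CPM in J20+ night. Of the 26 markers, 25 had counts in all wild-type day libraries and all 26 in every library of the other aged groups. In the night to day comparison of wild-type mice the neuron markers had a median log2 fold change of 3.01 with 10 of 10 positive, while the choroid epithelium markers had -0.82 with 0 of 10 positive. Neutrophil markers were also on the positive side, 5 of 5 tested with a median of 2.61.

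Across the 16 aged libraries, Pearson's r between the neural score and the microglial score was 0.827 (Spearman's rho 0.827), 0.777 without the 2 libraries farthest from the median neural score, and 0.772 for deviations from the group means. For the border macrophage score r was 0.307 (rho 0.135), 0.258 without those 2 libraries, and 0.576 for deviations from group means. The libraries share dissection, depth and the scaling of their table, so these correlations are descriptions. Across all 16 libraries P2ry12 had the highest r of the members, 0.906, before Trem2 with 0.869, Tyrobp with 0.867 and C1qc with 0.840. For deviations from the group means Cd68, a lysosomal membrane protein, had the highest r, 0.936, and P2ry12 had 0.860. Across all 16 libraries Siglech had 0.784, Tmem119 0.693 and Gpr34 0.633, but Fcrls, the remaining microglial gene, had -0.013. For deviations from the group means Siglech had 0.678, Tmem119 0.675, Gpr34 0.498 and Fcrls 0.240. At the other end across all 16 libraries were Cybb with -0.570, Adgre1 with -0.499, Lyz2 with -0.489 and Mrc1 with -0.340. As deviations from the group means, these were -0.259, -0.296, -0.223 and -0.0459. The MHC class II score had -0.089 across all 16 libraries. Across the 12 young libraries r with the microglial score was 0.705 (0.528 in the 11 without night library 4), and for Fcrls it was 0.452 and -0.251.

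**Figure D4:**
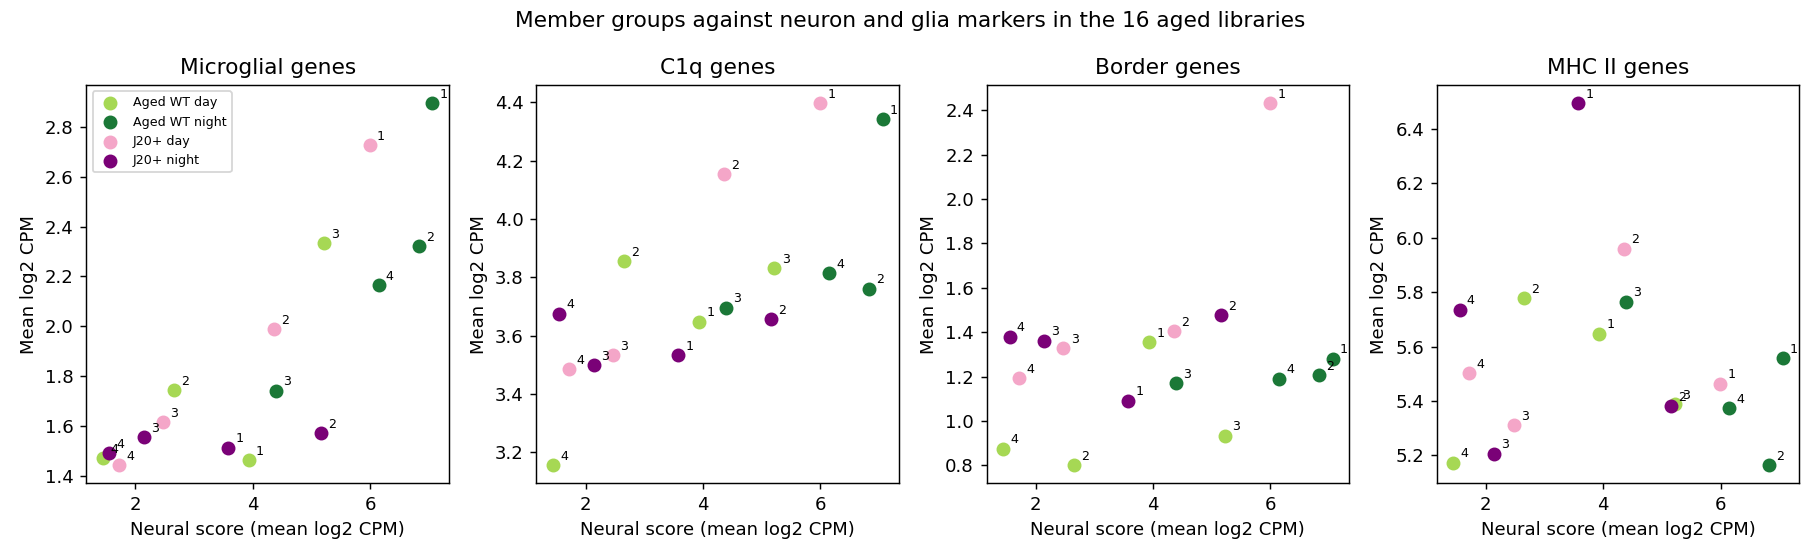
Neural score (mean log2 CPM of 26 markers, x axis) against the mean log2 CPM of the microglial, C1q, border macrophage and MHC class II genes (y axis, 1 panel each) in the 16 aged libraries, 1 point per library, coloured by group. The microglial score follows the neural score (r = 0.827) more closely than the border score does (r = 0.307).

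With the neural score as a covariate, the wild-type night to day log2 fold change of P2ry12 was -0.13, of Trem2 0.10, of Tyrobp 0.08 and of Aif1 -0.19. That of Cybb was -0.82, near its value without the covariate. That of Adgre1 was -0.49, beside wild-type group means, without the covariate, of 2.55 log2 CPM by day and 1.89 at night. The median of all 37 members was -0.12 with 10 positive, and that of the microglial genes -0.08. The covariate and the group are themselves related in these 16 libraries, so their parts in these values cannot be fully told apart.

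In J20+ mice, 5 of 37 members were positive at night against day, with a median of -0.33 against 0.02 over all genes. The median was -0.10 (12 positive) without day library 1, -0.54 (1 positive) without night library 1 and -0.20 with the neural score as a covariate. Markers of other cells lay on the same side, with 0 of 8 astrocyte (median -1.86), 1 of 10 neuron (-0.75) and 1 of 6 fibroblast markers (-0.58) positive, and their part was not tested beyond that covariate. EdgeR called 0 members and 7 genes (0.0436%), DESeq2 0 members and 0.492% of genes, and limma-voom 0 members and 1.71% of genes, with a median of -0.046 over the members and 15 positive. Unadjusted, 1 member, Fcrls, had a p under 0.05, against 7.41% of genes, and Csf1r alone had libraries that did not overlap, against 3.42% of genes. Csf1r had 43.8, 36.4, 27.3 and 29.7 CPM by day and 26.1, 23.5, 27.1 and 26.1 at night, lower in all 4 night libraries. The log2 fold changes with the smallest p were -0.53 ± 0.23 for Fcrls, -0.62 ± 0.29 for Adgre1 and -0.45 ± 0.25 for Csf1r (SE, n = 4 per group; adjusted p = 0.652 for each, edgeR). J20+ day library 1 was the highest aged library for 14 of the 37 members (37.8%), and for 8.71% of all genes. Without it the changes were -0.31 for Fcrls and -0.27 for Csf1r. Adgre1 had 10.8, 9.28, 7.86 and 7.68 CPM by day and 7.11, 2.5, 6.06 and 8.0 at night, and without night library 2 its change was -0.37. The 4 MHC class II genes were among the 5 positive members, with log2 fold changes from 0.15 to 0.23. Cd74 had 82.5, 120, 68.3 and 82.7 CPM by day and 184, 66.9, 68.7 and 102 at night, and without night library 1 the 4 changes were -0.24 (Cd74), -0.21 (H2-Aa), -0.22 (H2-Ab1) and -0.15 (H2-Eb1).

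Between genotypes by day, 35 of 37 members were positive in J20+ against wild-type, with a median log2 fold change of 0.30 against 0.03 over all genes. The median was 0.11 (28 positive) without J20+ day library 1 and 0.45 (37 positive) without J20+ day library 3. EdgeR called 0 members and 0 genes (0%), as did DESeq2 (0%). Limma-voom called 1 member, Adgre1 (0.50), and 14.7% of genes, and its median over the members was -0.029 with 18 positive. Unadjusted, 5 of 37 members (13.5%) had a p under 0.05, against 1.87% of genes. They were Mrc1, Fcrls, F13a1, Cd163 and Adgre1. Adgre1, Stab1, Fcrls and Lyz2 had every J20+ day library above every wild-type day library, 4 of 37 members against 1.03% of genes. By role the border macrophage genes had the largest median, 0.78, before receptors and adaptors with 0.34, microglial genes with 0.29, identity genes and C1q genes with 0.27, the lysosome and oxidase with 0.23 and MHC class II with 0.07. Without J20+ day library 1 the border macrophage median was 0.30 and the microglial median -0.07.

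Mrc1 had 8.40, 6.4, 4.32 and 5.81 CPM in wild-type day libraries and 14.9, 8.74, 9.95 and 8.38 in J20+ day libraries. The groups overlapped only in that the lowest J20+ library was just under the highest wild-type one, and the log2 fold change was 0.78 ± 0.26 (SE, n = 4; adjusted p = 0.989, edgeR). Stab1 (chromosome 14, 31139017 to 31168651), the scavenger receptor stabilin-1, had 12.4, 13.7, 11 and 12.6 CPM in wild-type and 26.4, 13.8, 14.7 and 15.7 in J20+, all above. F13a1, the A chain of coagulation factor XIII, had 1.89, 1.95, 1.14 and 1.06 CPM in wild-type and 6.05, 2.06, 1.85 and 1.67 in J20+. Cd163, the haemoglobin scavenger receptor, had 1.30, 1.01, 0.72 and 1.45 CPM in wild-type and 4.80, 1.09, 1.31 and 1.92 in J20+. For Stab1, F13a1 and Cd163 J20+ day library 1 stood far above the other 3.

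Without J20+ day library 1 the log2 fold change was 0.50 for Mrc1, 0.34 for Fcrls, 0.27 for F13a1 (1.00 with it), 0.32 for Cd163 (1.07 with it) and 0.21 for Stab1 (0.53 with it). That library also had the highest fibroblast and mural marker scores of the aged table, 6.44 and 4.09 log2 CPM. Its neural score of 5.99 was the highest of the J20+ libraries, and with the neural score as a covariate the change of Mrc1 was 0.75, of Fcrls 0.53 and of F13a1 0.71. The part of the stromal markers was not tested.

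Adgre1 had 5.74, 5.05, 5.16 and 7.31 CPM in wild-type day libraries, all under the 7.68 to 10.8 CPM of J20+ day. Fcrls had 4.44, 5.12, 4.92 and 4.58 CPM in wild-type and 9.46, 6.89, 6.01 and 5.61 in J20+, also without overlap (0.57 ± 0.24, adjusted p = 0.989, edgeR). Lyz2 (chromosome 10, 117277541 to 117282272) had 39.1, 46.3, 36.6 and 33.9 CPM in wild-type and 57.8, 74.6, 47.8 and 48.4 in J20+. For these 3 genes the separation held in all 4 J20+ libraries, by a small margin in the lowest of them.

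**Figure D5:**
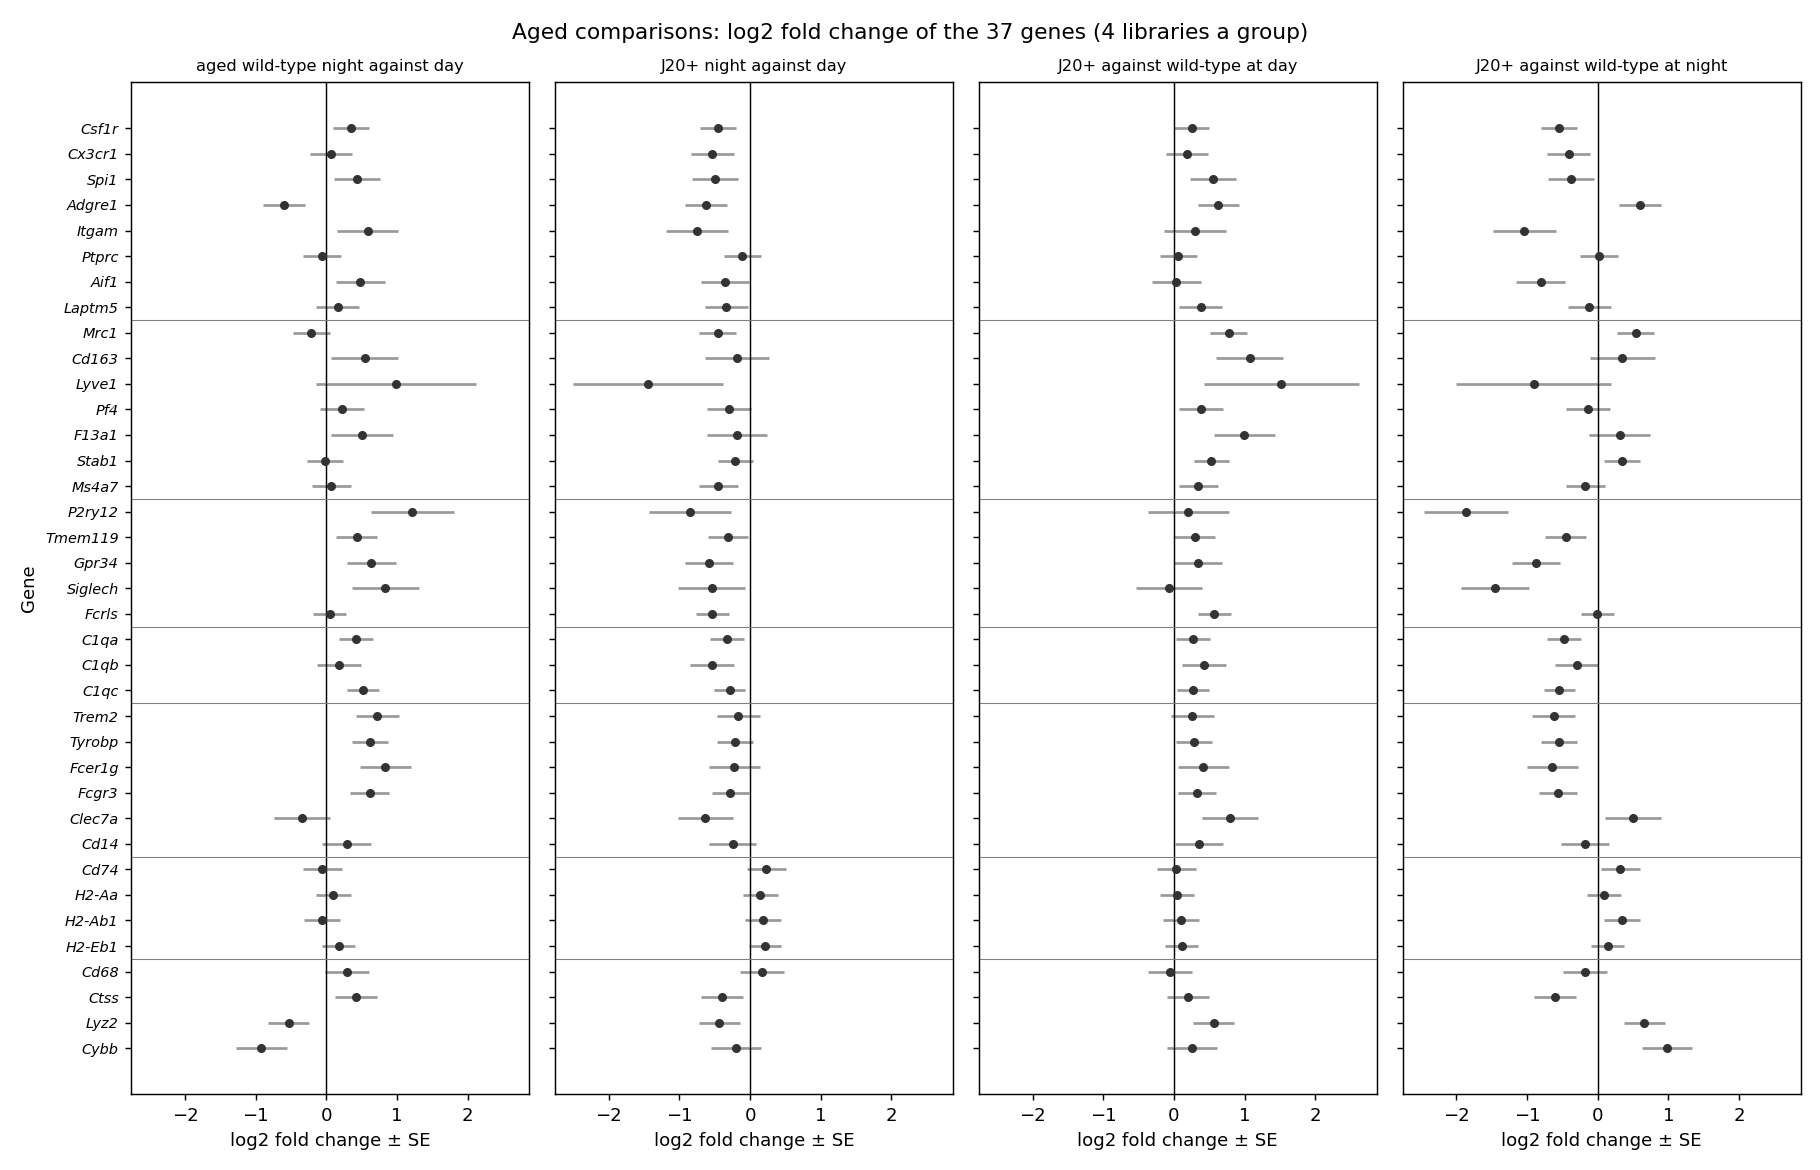
Log2 fold change with SE (edgeR, n = 4 per group) of the 37 genes, ordered by role, in the 4 aged comparisons of 2 groups. In J20+ against wild-type by night the microglial genes other than Fcrls lie left of 0 and Mrc1, Adgre1, Lyz2 and Cybb right of it, and no member passed an adjusted p of 0.05.

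Between genotypes by night, 13 of 37 members were positive, with a median of -0.18 against -0.01 over all genes. The median was -0.36 without J20+ night library 1, -0.34 without wild-type night library 2 and -0.10 without wild-type night library 1. In edgeR 0 members and 1 gene (0.00622%) were called. Unadjusted, 10 of 37 members (27%) had a p under 0.05, near the 31.9% of all genes. DESeq2 called 2 members lower in J20+, P2ry12 (-1.89, adjusted p = 0.0232) and Siglech (-1.48, adjusted p = 0.0327), and 18.5% of all genes. Limma-voom called 4 members higher, Adgre1, Mrc1, Lyz2 and Cybb, and 16 lower, and 72.1% of all genes. Gpr34, Siglech and C1qa did not overlap, lower in J20+, against 7.92% of all genes. The medians by role parted: -0.87 for microglial genes, -0.55 for receptors and adaptors, -0.47 for C1q and -0.39 for identity genes, but 0.31 for border macrophage genes, 0.24 for the lysosome and oxidase and 0.23 for MHC class II. The border macrophage median was 0.10 without J20+ night library 2 and 0.12 without library 3, and the microglial median -0.55 without wild-type night library 1.

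P2ry12 had 10.9, 6.64, 2.73 and 5.45 CPM in wild-type night libraries and 1.48, 2.89, 1.74 and 1.53 in J20+ night libraries. Wild-type library 3 lay just under the highest J20+ library, and the log2 fold change was -1.86 ± 0.59 (SE, n = 4; adjusted p = 0.0917, edgeR). Siglech had 6.17, 3.35, 2.09 and 3.15 CPM in wild-type and 1.57, 1.93, 1.14 and 1.21 in J20+, without overlap (-1.45 ± 0.48, adjusted p = 0.0926, edgeR). Gpr34 (X chromosome, 13622650 to 13640859) had 5.67, 3.23, 2.89 and 3.01 CPM in wild-type and 2.71, 1.48, 2.23 and 2.29 in J20+ (-0.87 ± 0.34, adjusted p = 0.112, edgeR). Fcrls again stood apart from the other microglial genes, with 5.55, 5.26, 4.18 and 3.62 CPM in wild-type and 4.15, 3.97, 6.24 and 5.43 in J20+ (-0.01 ± 0.24). Cybb was on the other side, with 4.60, 1.96, 4.60 and 3.34 CPM in wild-type and 12.9, 3.18, 5.30 and 9.16 in J20+ (0.98 ± 0.36, adjusted p = 0.101, edgeR). J20+ night library 2 lay inside the wild-type range for Cybb, and without J20+ night library 1 its change was 0.58.

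J20+ night library 2 held the highest value of the aged table for 20.6% of all genes and the lowest for 22.2%. Without it edgeR called 57.7% of all genes between genotypes by night, and 10 members. Higher in J20+ were Adgre1 (0.86), Mrc1 (0.69), Lyz2 (0.88) and Cybb (1.24), and lower were Aif1 (-1.05), P2ry12 (-2.13), Siglech (-1.61), C1qc (-0.65), Trem2 (-0.77) and Fcer1g (-1.01). With the neural score as a covariate and all libraries kept, the log2 fold change was -0.31 for P2ry12, -0.51 for Siglech, -0.27 for Gpr34 and 0.03 for C1qa. It was 0.87 for Cybb, 0.64 for Mrc1, 0.55 for Lyz2 and 0.48 for Adgre1. The microglial median was then -0.27, the border macrophage median 0.70 and the median of all members 0.21, with 28 of 37 positive.

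The interaction asks whether the night to day change differed between J20+ and wild-type mice. It was negative for 31 of 37 members, with a median of -0.68 against 0.06 over all genes, or -0.31 without J20+ day library 1. EdgeR called 0 members and 0 genes (0%), DESeq2 0 members and 0.056% of genes, and limma-voom 4 members, P2ry12, Siglech, C1qc and Fcer1g, all lower, with 33.3% of all genes. Unadjusted, 8 of 37 members (21.6%) had a p under 0.05, against 12.4% of all genes. The smallest p belonged to C1qc (-0.81 ± 0.32), Gpr34 (-1.21 ± 0.48) and P2ry12 (-2.07 ± 0.82), each with an adjusted p of 0.363 (edgeR). C1qc, a further chain of C1q, had 10.1, 13.1, 13.8 and 8.99 CPM in wild-type day, 18.4, 14.6, 13.2 and 15.7 in wild-type night, 18.2, 14.8, 10.9 and 10.7 in J20+ day and 9.90, 14.0, 10.6 and 11.1 in J20+ night. Without J20+ day library 1 the interaction was -0.52 for C1qc and -1.33 for P2ry12. Without J20+ night library 2 edgeR called Fcer1g (-1.42, adjusted p = 0.0461), and 20.9% of all genes. With the neural score as a covariate it was -0.17 for P2ry12, -0.56 for Gpr34 and -0.24 for C1qc, and the median of the members was -0.08.

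Further genes of the same pathways were counted from lists of ligands, signalling partners and additional markers, and edgeR called 0 members of these 6 lists in all 8 comparisons. Of the genes for CSF1R ligands, TGF-beta signalling and macrophage transcription factors (12 tested in the young table and 13 in the aged), 1 in young night against day and 5 in aged wild-type night against day had an unadjusted p under 0.05 (8.33% and 38.5%, against 9.39% and 31.1% of all genes). Il34, a second ligand of CSF1R, had the smallest p by night in young mice (0.90 ± 0.27 against day, adjusted p = 0.274, edgeR) and in aged wild-type mice (1.22 ± 0.35, adjusted p = 0.144, edgeR). Il34 is also made by neurons. Of 9 tested genes of the TREM2 and SYK chain, 8 were positive in young night against day, with a median of 0.88 and 5 (55.6%) at an unadjusted p under 0.05, against 9.39% of all genes, among them Syk, the kinase that gives the chain its name (1.74 ± 0.63), and Grn, the gene of progranulin (0.49 ± 0.18). Night library 4 was the highest young library for 7 of the 9. The 10 tested genes of the MHC class II machinery, such as Ciita and H2-DMa, had medians between -0.12 and 0.15 in all 8 comparisons, and night library 4 was the highest for 0 of the 10.

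Among 16 tested further border macrophage genes in the young table and 17 in the aged table, 14 of 17 were positive in J20+ against wild-type by day, with a median of 0.38 and 1 (5.88%) at an unadjusted p under 0.05, against 1.87% of all genes. Msr1, a scavenger receptor for modified lipoproteins, had a log2 fold change of -1.82 ± 0.42 by night in aged wild-type mice (adjusted p = 0.144, edgeR), and of 1.66 ± 0.42 in J20+ against wild-type by night (adjusted p = 0.0917, edgeR). These 2 comparisons share the wild-type night libraries. Of 10 tested further microglial genes, 7 were positive in wild-type night against day with a median of 0.84, and 3 were positive in J20+ against wild-type by night with a median of -1.12, with 4 and 5 of the 10 at an unadjusted p under 0.05, where 31.1% and 31.9% of all genes were. The latter were led by Slc2a5, a fructose transporter (-2.01 ± 0.69, adjusted p = 0.0943, edgeR), and the purinergic receptor gene P2ry13 (-1.23 ± 0.44, adjusted p = 0.0993, edgeR). The neural score averaged 3.31 in wild-type day, 6.1 in wild-type night and 3.11 in J20+ night. Its part in the values of these further microglial genes was not tested. Of 9 tested genes known from microglia around amyloid plaques, 6 were positive in J20+ against wild-type by day and 5 by night, with medians of 0.17 and 0.16 and 3 and 2 at an unadjusted p under 0.05, where 1.87% and 31.9% of all genes were. Gpnmb, a lysosomal glycoprotein of lipid-laden phagocytes, had 1.10 ± 0.38 by night (adjusted p = 0.0951, edgeR), and Spp1, osteopontin, 0.76 ± 0.25 by day (adjusted p = 0.989, edgeR).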

How the data were processed

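Poly(A) RNA of the lateral ventricle choroid plexus was sequenced as stranded TruSeq libraries on a NovaSeq, per the labels' protocols. Raw counts per Entrez gene, with no normalization, were deposited in 2 tables, 12 young libraries (batch 1) and 16 aged libraries (batch 2). Per the submitters' processing notes, the build was mm10 and the tools were HISAT2 2.2.1 and featureCounts 2.0.1, beside FastQC 0.11.8, Picard 2.18.2, cutadapt and DESeq2. Not given in the sources used here are the strand setting, the annotation and the handling of multi-mapping reads, so counts of similar genes (MHC class II, Fc receptors) are uncertain. Identifiers were matched to symbols with RefSeq (GRCm38.p6): 25275 of 27179 (93.0%).

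Each table was filtered with filterByExpr, scaled by TMM and fitted with edgeR 4.0.16 (quasi-likelihood, 1 coefficient per group) in R 4.3.3. Benjamini-Hochberg adjustment ran over all genes tested, with a threshold of 0.05. Log2 CPM has a prior count of 2, and SE is the log2 fold change over the square root of F. The fit was also run on simulated counts with the same spread for every gene and no outlying library. Its outcome there was not used for the results above. Alternatives were DESeq2 1.42.0, limma-voom (limma 3.58.1) with quality weights, other scalings, prior count and filters, the neural score as a covariate, fits on only the groups compared, and fits without each library in turn. Replicate numbers only name mice. The p-values measure the spread between single mice within groups. That spread was estimated over all groups of a table together, so groups outside a comparison also enter its p and SE. Only the fits on the groups compared leave them out. No 2 libraries were identical. The 37 genes, the roles and the other lists were chosen with earlier results of these data known. Genes were named by rule: the 3 members with the smallest p where none was called, up to 3 per further list, and the 10 genes that follow each score most closely; other members named beside them were chosen after their values were seen.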

Additional observations from a re-analysis of the deposited data

Results flagged for a closer look

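In groups of 4 libraries, a highest or lowest library that stood apart by Dixon's 95% critical value was found in 17 of 253 tests (6.72%). Chance alone gives about 1 in 20; all values are log2 CPM. Of the 17, 5 were young night library 4 as the highest: Adgre1 at 7.56 (others 3.41 to 3.90), Fcrls at 6.41 (2.2 to 2.82), Itgam at 5.27 (1.42 to 1.79), Fcer1g at 4.89 (1.34 to 1.83) and Aif1 at 4.43 (0.79 to 1.28). Young day library 3 was the lowest for Mrc1 at 2.74 (4.20 to 4.28).

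In wild-type day, library 4 was the lowest for Aif1 at 1.11 (1.58 to 1.60), C1qa at 3.68 (4.25 to 4.34) and C1qb at 2.6 (3.35 to 3.50). Library 2 was the highest for Clec7a at 1.51 (0.90 to 0.97) and library 3 the lowest for Cybb at 2.65 (2.91 to 2.96). In wild-type night, library 1 was the highest for Gpr34 at 2.53 (1.58 to 1.74), C1qb at 3.98 (2.92 to 3.08) and Ctss at 5.85 (5.08 to 5.17). In J20+ mice, day library 1 was the highest for F13a1 at 2.62 (0.82 to 1.11), day library 2 the highest for H2-Ab1 at 5.18 (4.73 to 4.81), and night library 2 the lowest for Ms4a7 at 1.02 (1.71 to 1.84). Wild-type night library 1, which had the highest neural score of all libraries (7.06), was the highest aged library for 12 of 37 members (32.4%) and for 4.32% of all genes.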

How the results depend on the processing

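The median of the members changed sign in 3 cases: wild-type night against day and J20+ against wild-type by night with the neural covariate, and J20+ against wild-type by day in limma-voom. DESeq2 gave 1 member lower in young night against day, 1 higher in night against sleep disruption and 2 lower in J20+ against wild-type at night. Limma-voom gave 2 lower in young night against day, 1 higher in night against sleep disruption (median 0.34), 8 higher and 3 lower in wild-type night against day, 1 higher in J20+ against wild-type by day (median -0.029), 4 higher and 16 lower by night, and 4 lower in the interaction (median -0.17). The fit on the compared groups alone gave 1 higher and 1 lower in wild-type night against day. The neural covariate moved the median to -0.12 in wild-type night against day, to 0.21 in J20+ against wild-type by night and to -0.083 in the interaction. The cause of these differences was not tested. Leaving out 1 library at a time, members called in J20+ against wild-type by night ran from 0 to 4 higher and from 0 to 6 lower, and in the interaction from 0 to 1 lower, with medians from -0.86 to -0.31. The median ran from 0.13 (without young night library 4) to 0.74 in young night against day, from 0.44 to 1.11 in night against sleep disruption, from -0.47 to -0.13 in sleep disruption against day, from 0.12 to 0.37 in wild-type and from -0.54 to -0.10 in J20+ night against day, and between genotypes from 0.11 to 0.45 by day and from -0.36 to -0.10 by night. Under the filter of 10 CPM the microglial genes gave no median, and the interaction has no fit on compared groups alone. No paired analysis was possible because the replicate numbers follow the order of the records and name separate mice. With 4 mice per group and few counts per library for Spi1, Lyve1, Trem2 and Pf4 in the young table, small changes of these genes are measured with a wide error.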

Other observations

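Genes outside the lists were ranked by Pearson's r between their deviations from the group means and those of a score, as a description. In the 12 young libraries the 10 that followed the border macrophage score most closely were Ifi207 (0.951), Pros1, Gpr65, Lox, Gbp9, Itih5, Cd36, A330041J22Rik, Zeb2os and Emp1 (0.924). Of these, 3 were also among the 10 found without night library 4. For the microglial score they were Slc16a10 (0.980), Lcp2, Arhgap30, Atp13a5, Scn7a, Fli1, Hpgd, Pik3cg, Gatm and Arhgap19 (0.948), and 3 of these remained among the 10 without that library.

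In the 16 aged libraries the 10 for the border macrophage score were Afap1l2 (0.944), 3300002A11Rik, Rnf138rt1, Inhbb, Adgb, Gpr55, Rarres2, Scn7a, Ndn and Dlk1 (0.926). For the microglial score they were Tmcc3 (0.946), Prrg1, Ell2, Sema6a, Rhobtb3, Parvb, Stmn1, Lpar1, Tmeff1 and Rassf2 (0.901). None of the 10 genes of a score in young mice was among its 10 in aged mice.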
